A study of Mus musculus with 6 samples.

Results

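The 56 genes described here make the machinery of mitosis and chromosome segregation. They were listed by name, and a row of the count table counted as a member when it carried a listed symbol and held at least 10 counts over the 6 libraries. All 56 listed genes met this rule, out of 14535 gene rows, and all 56 also passed the filter on low counts that left 11934 genes for testing. The smallest total was 152 counts (Stmn1) and the largest 47991 (Mki67). RNA-seq was run on type 2 conventional dendritic cells (cDC2s) of C57BL/6 mouse spleen, with 3 wild-type (WT) and 3 IRF4-deficient libraries. The IRF4-deficient mice are CD11c-Cre Irf4fl/fl, so Cre recombinase driven by the CD11c (Itgax) promoter removes a loxP-flanked part of Irf4 in any cell that uses this promoter, which includes other dendritic cells and some macrophages. The transcription factor IRF4 is highly expressed by cDC2s. No group carried Cre alone, and neither the ages nor the gate used to purify the cells is given in the sources used here. The labels do not tie each library to a separate mouse, and so the p-values cover no more than the variation seen among 6 libraries, part of which could be technical.

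At the entry into mitosis, cyclin-dependent kinase 1 with cyclin B starts chromosome condensation and spindle assembly. Kinetochores then attach to spindle microtubules under the watch of the spindle assembly checkpoint, and the anaphase-promoting complex with its activator CDC20 releases the sister chromatids. Most of these genes are transcribed in the G2 and M phases and are nearly silent in resting cells. Conventional dendritic cells of the spleen are short-lived, are replaced from blood-borne precursors and divide to a limited extent in the organ itself. Which cells held these transcripts in the libraries was not tested.

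Many promoters of mitotic genes are known to carry CCAAT boxes, bound by NF-Y, and a cell cycle homology region (CHR), through which DREAM and B-MYB complexes act. RefSeq promoter windows on GRCm38.p6, from 250 bases before to 50 bases after the transcription start, were at hand for 46 members, as 49 windows. Not matched were Aurkb, Ccna2, Cdca2, Foxm1, Incenp, Kif20a, Smc4, Spc24, Stmn1 and Tpx2. The letters CCAAT, or ATTGG on the other strand, were in 36 windows of members (73.5%). They were in 38.4% of 10877 windows of tested genes and 37.4% of all 32851 windows. The windows of tested genes cover the 8553 of 11934 whose symbol matched. The CHR was searched as TTTGAA, which on the other strand reads TTCAAA, and as the variant TTTAAA, which reads the same on both. It was in 42 windows of members (85.7%), against 19.5% and 27.6%. Both motifs were in 34 windows of members (69.4%), against 7.56% and 10.7%. A CHR lay within 50 bases of the start in 36 windows of members (73.5%), against 5.17% of windows of tested genes. A CCAAT box and a CHR can share an end base, and a match is a description of the sequence, not a binding site. Windows of members called higher in IRF4-deficient cells held both motifs in 16 of 24 cases, and windows of members not called in 18 of 25.

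The bases before the start are printed for the 5 members with the smallest adjusted p among those whose window holds both motifs, because these promoters show the element pair that most of the genes share. Capitals mark CCAAT boxes and CHR letters on either strand, each sequence runs 5′ to 3′ on the strand of the gene, and the build is GRCm38.p6. In the Cenpe and Kif18b windows the CHR begins 15 and 4 bases past the start and so is not in the printed stretch.
Mki67, chr7:135716380-135716629, minus strand: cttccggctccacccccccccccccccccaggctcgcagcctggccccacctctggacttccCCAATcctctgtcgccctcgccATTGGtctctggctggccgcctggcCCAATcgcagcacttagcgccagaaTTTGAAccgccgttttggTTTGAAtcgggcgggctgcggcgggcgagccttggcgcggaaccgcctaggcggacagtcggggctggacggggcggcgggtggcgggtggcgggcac
Cenpe, chr3:135212313-135212562, plus strand: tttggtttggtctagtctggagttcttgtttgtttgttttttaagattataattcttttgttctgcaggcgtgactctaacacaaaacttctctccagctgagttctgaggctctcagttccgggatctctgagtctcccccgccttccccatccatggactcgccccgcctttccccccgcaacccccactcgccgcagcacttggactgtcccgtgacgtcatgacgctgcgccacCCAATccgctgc
Ncapd2, chr6:125191587-125191836, minus strand: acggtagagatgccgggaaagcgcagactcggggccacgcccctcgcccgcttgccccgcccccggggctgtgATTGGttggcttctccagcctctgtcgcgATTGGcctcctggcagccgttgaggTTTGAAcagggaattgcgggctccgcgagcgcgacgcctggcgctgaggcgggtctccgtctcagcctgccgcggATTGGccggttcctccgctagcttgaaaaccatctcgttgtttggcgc
Kif18b, chr11:102925125-102925374, minus strand: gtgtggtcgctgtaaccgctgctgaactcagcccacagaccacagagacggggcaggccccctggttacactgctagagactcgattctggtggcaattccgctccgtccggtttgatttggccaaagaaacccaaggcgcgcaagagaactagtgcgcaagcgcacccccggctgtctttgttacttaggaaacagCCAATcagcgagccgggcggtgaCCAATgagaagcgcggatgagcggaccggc
Top2a, chr11:99024190-99024439, minus strand: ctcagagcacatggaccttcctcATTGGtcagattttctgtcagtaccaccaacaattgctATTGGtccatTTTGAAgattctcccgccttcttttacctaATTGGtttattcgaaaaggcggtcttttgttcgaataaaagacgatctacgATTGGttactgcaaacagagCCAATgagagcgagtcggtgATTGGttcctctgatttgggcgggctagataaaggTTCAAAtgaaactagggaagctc

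Most of the listed mitosis genes read higher in the IRF4-deficient cDC2s. The members were chosen with earlier results of these data known, so the share called is a description of this list. Of 101 mitosis genes outside it, 13.9% were called higher. Of the 56 members, 29 were called higher and 0 lower at an edgeR adjusted p under 0.05, while 9.87% of all tested genes were called higher and 10.5% lower. The unadjusted p was under 0.05 for 36 members. The median log2 fold change was 0.46 over the members and 0.003 over all tested genes, and 54 of the 56 fold changes were above 0. The changes were small. Called members rose 1.27-fold to 2.01-fold with a median of 1.52-fold, 15 of them reached 1.5-fold, and Spc24 was the 1 member past 2-fold. In 33 members every IRF4-deficient library was above every WT library, which held for 17.5% of all tested genes. In RNA of a whole cell population, a larger share of dividing cells and more of the transcript per dividing cell cannot be told apart.

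**Figure D1:**
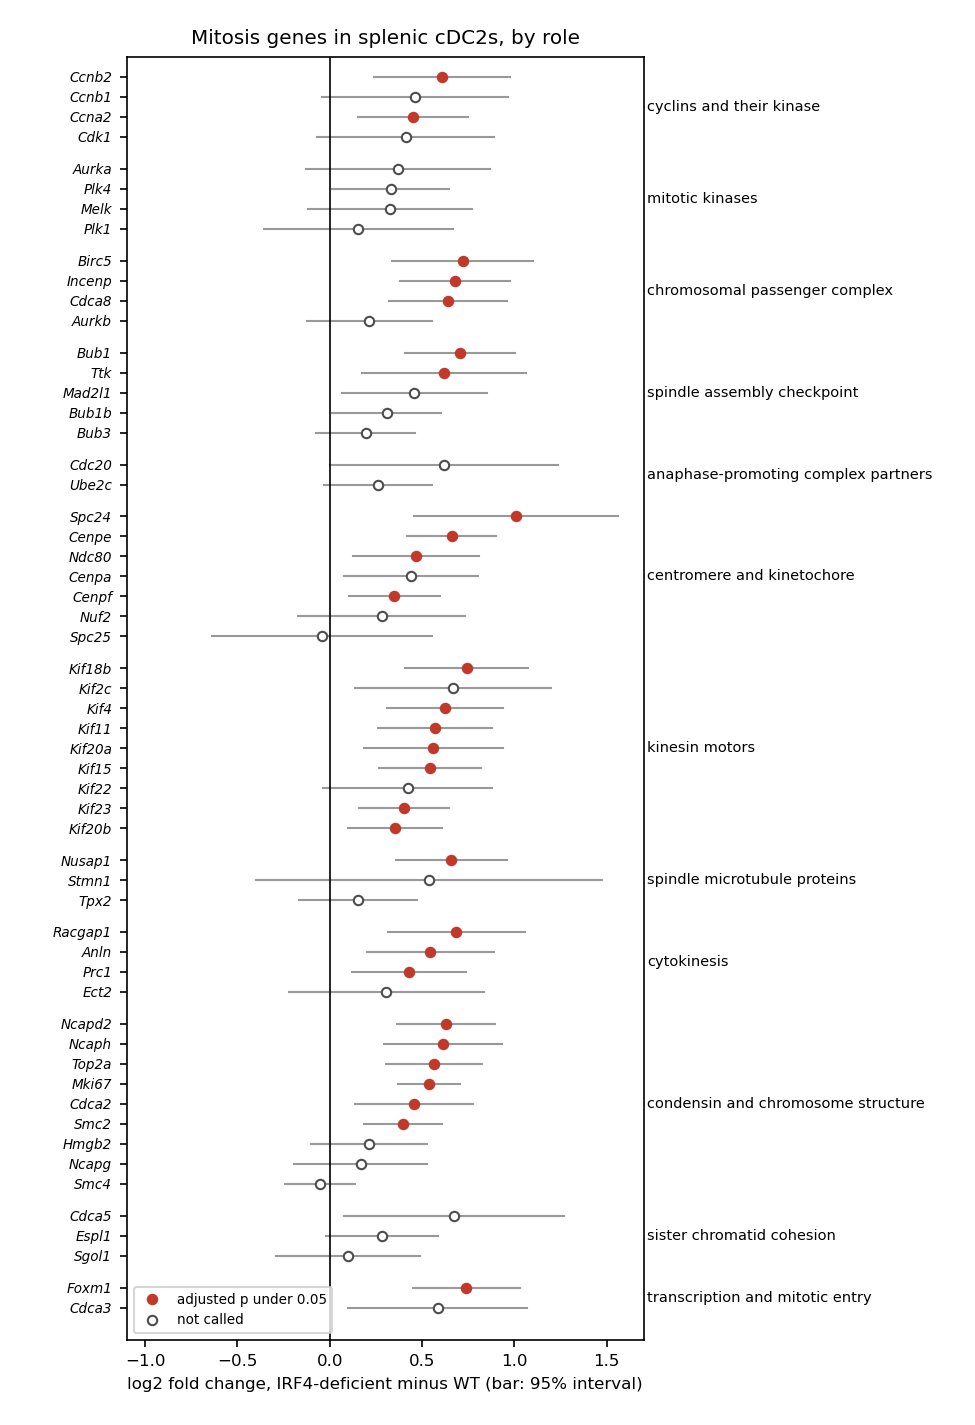
Log2 fold change (IRF4-deficient minus WT, x axis) of each of the 56 mitosis genes (y axis), grouped by role, with its 95% interval as a bar. Filled points are the 29 genes called higher, and the open points of Spc25 and Smc4 are the ones below 0.

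The IRF4-deficient libraries differed among themselves in these genes. IRF4-deficient replicate 1 held the highest level of 50 of the 56 members (89.3%), while it was the highest library for 16.4% of all tested genes. The summed level of the members was 5695, 4579 and 4394 CPM (counts relative to the library total, scaled with TMM factors) in IRF4-deficient replicates 1, 2 and 3 and 3736, 3560 and 3487 CPM in WT replicates 1, 2 and 3. Every IRF4-deficient library was thus above every WT library, with the largest gap in replicate 1 (mean ± SD 4889 ± 704 against 3594 ± 128 CPM, n = 3 each). Without IRF4-deficient replicate 1, 16 members were called higher (9.08% of all tested genes in that fit), all of them among the 29, and the median log2 fold change was 0.31. These were Bub1, Cdca8, Cenpe, Foxm1, Incenp, Kif4, Kif11, Kif15, Kif18b, Mki67, Ncapd2, Ncaph, Nusap1, Smc2, Spc24 and Top2a. In that fit 51 fold changes were above 0. IRF4-deficient replicates 2 and 3 were both above all WT libraries in 33 members, against 22.1% of all tested genes. Over the 6 fits that left out a library the number called higher ran from 16 to 32, with 17 without WT replicate 2 and 18 without WT replicate 3. Over all tested genes the fits without WT replicates 2 and 3 called 868 of 12136 and 892 of 12203 higher. With all libraries it was 1178 of 11934. In each of the 6 fits 13 members were called, namely the 16 above without Kif11, Ncaph and Spc24. Those lost the call without WT replicate 2 (adjusted p 0.0535, 0.0621 and 0.0512).

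**Figure D2:**
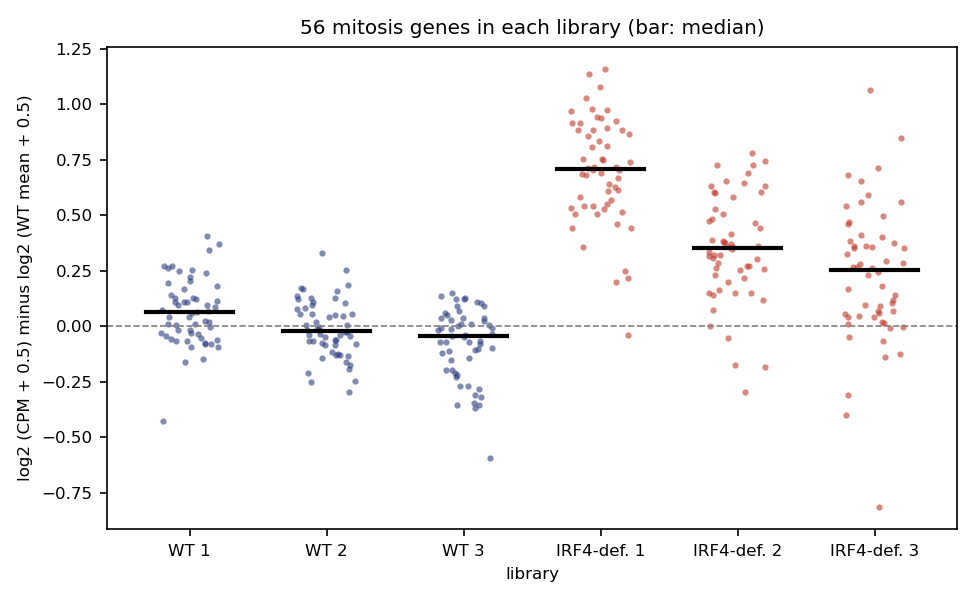
Level of each mitosis gene in each library (x axis) relative to its WT mean, as log2 (CPM + 0.5) (y axis), with 1 point per gene and a bar at the median. The points of IRF4-deficient replicate 1 lie highest, and the medians of replicates 2 and 3 also lie above those of the WT libraries.

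Depth was 7421605 to 11459920 counts per library. Irf4, the deleted gene, read 90.8, 65.3 and 84.0 CPM with the deletion and 291.8, 295.8 and 345.0 CPM without it, so each library matched its label. On the second principal component of all tested genes (13.95% of the variance) IRF4-deficient replicate 3 stood at -34.1, with replicates 1 and 2 at 18.8. Red pulp macrophage genes ordered the IRF4-deficient libraries the other way from the mitosis genes. Their 11 genes summed to 1760, 2447 and 3199 CPM in replicates 1, 2 and 3 of that group and to 1228 to 1580 CPM in WT. Of the 11, 6 were called higher (54.5%, against 9.87% of all tested genes) and 1 (Emr1) lower (9.09%, against 10.5%). Their part in the result was not tested. Without IRF4-deficient replicate 3, 32 members were called higher and the median log2 fold change was 0.55. That fit called 1157 of 12082 tested genes higher.

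**Figure D3:**
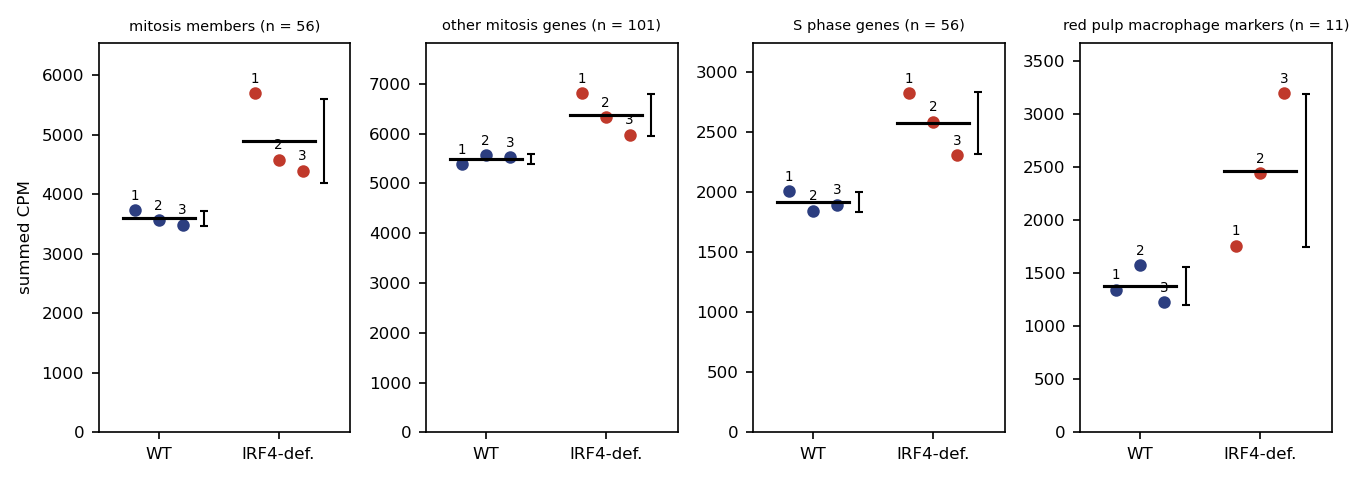
Summed CPM (y axis, from 0) of the mitosis genes, the other mitosis genes, the S phase genes and the red pulp macrophage markers in each library, with points numbered by replicate, a line at the group mean and an error bar of 1 SD (n = 3). IRF4-deficient replicate 1 is the highest library in the first 3 lists and the lowest IRF4-deficient library in the last.

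Cyclin genes rose in part. Of the cyclins and their kinase, 2 of 4 members were called higher (median log2 fold change 0.46). Ccna2, the cyclin A2 gene active from S phase to early mitosis, stood at 137.7, 97.9 and 97.9 CPM in IRF4-deficient libraries (replicates 1, 2 and 3, the order used throughout) and at 95.01, 74.1 and 75.3 CPM in WT. The lowest IRF4-deficient value was just above the highest WT value, and the gene rose 1.37-fold (edgeR adjusted p = 0.0307). Ccnb2, a cyclin B gene, stood at 57.3, 39.1 and 39.7 CPM against 36.0, 26.1 and 27.7 CPM, a 1.52-fold rise (edgeR adjusted p = 0.0181). Neither was called without IRF4-deficient replicate 1, WT replicate 2 or WT replicate 3 (adjusted p 0.12 to 0.196 for Ccna2 and 0.0768 to 0.135 for Ccnb2). Ccnb1, the other cyclin B gene, had 718 counts in all and was not called, at 15.1 ± 3.27 against 11.0 ± 2.19 CPM (SD, n = 3 each). The same was true of Cdk1, the kinase they activate, at 18.2 ± 5.51 against 13.7 ± 1.24 CPM.

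None of the 4 mitotic kinase genes outside complexes was called. Plk4, the kinase of centriole duplication, stood at 51.4, 42.9 and 38.2 CPM in IRF4-deficient libraries and 31.4, 37.2 and 36.9 CPM in WT. These groups did not overlap, yet the edgeR adjusted p was 0.138. Aurka, the Aurora kinase of the spindle poles, stood at 22.8, 15.6 and 14.9 CPM against 17.7, 13.0003 and 10.8 CPM, with overlapping groups and a log2 fold change of 0.37 with a 95% interval of -0.13 to 0.87. Plk1, which acts from mitotic entry to cytokinesis, stood at 26.7, 16.9 and 12.7 CPM against 18.1, 18.3 and 14.3 CPM, so that IRF4-deficient replicate 1 was the highest library and replicate 3 the lowest. Melk, a kinase of dividing cells, was at 22.5 ± 6.53 and 18.04 ± 1.53 CPM.

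Of the chromosomal passenger complex, which corrects faulty microtubule attachments and guides cytokinesis, 3 of the 4 subunits were called higher (median log2 fold change 0.66). Incenp, the scaffold subunit, stood at 81.0, 74.3 and 56.6 CPM in IRF4-deficient libraries and at 41.9, 42.9 and 47.7 CPM in WT, without overlap. It rose 1.601-fold (edgeR adjusted p = 0.0017). Cdca8, the borealin gene, stood at 58.5, 44.5 and 46.9 CPM against 33.5, 35.1 and 27.6 CPM and rose 1.56-fold (edgeR adjusted p = 0.00493). Birc5, which encodes survivin, rose 1.65-fold from 25.7 ± 1.53 to 42.2 ± 11.7 CPM, but was not called without IRF4-deficient replicate 1 (adjusted p 0.0702). The catalytic subunit gene Aurkb stood at 61.5, 47.0 and 38.4 CPM against 46.2, 42.5 and 38.2 CPM, and with these overlapping groups was not called (log2 fold change 0.21, 95% interval -0.12 to 0.55). Whether members of a complex differ from each other was not tested.

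Spindle assembly checkpoint genes, which delay anaphase until all kinetochores are attached, included 2 called higher of 5. Bub1, a checkpoint kinase that recruits other checkpoint proteins to kinetochores, was nearly level over the IRF4-deficient libraries at 62.9, 61.7 and 61.2 CPM. Its WT values of 45.2, 37.3 and 31.4 CPM were all lower, and the rise was 1.63-fold (log2 fold change 0.71, SE 0.14, edgeR adjusted p = 0.00119). Here IRF4-deficient replicate 1 was close to the other libraries of its group. Ttk, the MPS1 kinase gene, rose 1.53-fold with values of 33.5, 25.8 and 18.04 CPM against 17.0, 16.4 and 17.2 CPM. Its call (edgeR adjusted p = 0.0456) held in 1 of the 6 fits without a library, that without IRF4-deficient replicate 3, and was lost in the other 5 (adjusted p 0.0906 to 0.271), with limma-voom and with a replicate block (0.0698 and 0.0756). Mad2l1, the MAD2 gene, stood at 29.1, 27.2 and 44.3 CPM against 26.4, 23.6 and 23.2 CPM, with IRF4-deficient replicate 3 the highest library, and did not pass the test (edgeR adjusted p = 0.0955). Bub1b, the BUBR1 gene, was at 105.0, 94.9 and 73.5 CPM against 78.8, 62.0 and 80.5 CPM. Its groups overlapped and its edgeR adjusted p was 0.137, which went to 0.0197 on leaving out IRF4-deficient replicate 3. Bub3, a partner of both BUB proteins that resting cells also make, stood at 75.3 ± 11.2 and 65.7 ± 3.55 CPM.

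Neither partner of the anaphase-promoting complex was called. Ube2c, its ubiquitin-conjugating enzyme, stood at 83.3, 67.5 and 68.7 CPM in IRF4-deficient and 73.8, 56.4 and 53.3 CPM in WT libraries. Cdc20, the activator that the checkpoint holds back, had 567 counts in all and stood at 18.6, 10.6 and 8.13 CPM against 9.27, 7.36 and 7.92 CPM. Its groups overlapped and its edgeR adjusted p was 0.158, against 0.0408 without IRF4-deficient replicate 3.

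Among centromere and kinetochore genes 4 of 7 were called higher. Cenpe, a kinesin of the kinetochore (GRCm38 chromosome 3, 135212537 to 135273611, plus strand), stood at 194.8, 149.5 and 155.4 CPM in IRF4-deficient libraries and at 99.7, 117.6 and 98.5 CPM in WT. The lowest IRF4-deficient library was well above the highest WT library, and the gene rose 1.58-fold (log2 fold change 0.66, SE 0.11, edgeR adjusted p = 0.000305). Spc24 (chromosome 9, 21755442 to 21760303, minus strand) rose 2.01-fold, with 12.1, 10.5 and 12.9 CPM against 6.78, 5.364 and 5.6001 CPM (edgeR adjusted p = 0.00949). It rests on 482 counts. Spc25, whose product pairs with that of Spc24 in the NDC80 complex that grips microtubules, was not called. Its values were 12.4, 13.1 and 5.90 CPM against 9.68, 11.8 and 10.8 CPM, with a log2 fold change of -0.04 and a 95% interval of -0.64 to 0.56. IRF4-deficient replicates 1 and 2 were above all WT values, and replicate 3 was the lowest library. The interval of Spc24, 0.46 to 1.56, overlaps that of Spc25, and a difference between these genes was not tested. The other pair of that complex was Ndc80, called higher at 39.0 ± 6.69 against 28.3 ± 2.70 CPM, and Nuf2, not called at 23.8 ± 5.64 against 19.7 ± 5.14 CPM. Cenpf, a large coiled-coil protein gene, rose 1.27-fold from 103.5 ± 4.40 to 131.9 ± 21.9 CPM. The calls of Ndc80 and Cenpf were lost in 5 of the 6 fits without a library, all but that without IRF4-deficient replicate 3 (adjusted p 0.0673 to 0.233 and 0.0827 to 0.210). Ndc80 also lost it with a replicate block or upper-quartile factors (0.0517 to 0.0669), and Cenpf with limma-voom or without robust shrinkage (0.0502 to 0.0623). Cenpa, the histone variant that marks centromeres, was at 42.2, 30.4 and 33.6 CPM against 28.2, 28.5 and 21.6 CPM, which did not overlap, and had an edgeR adjusted p of 0.0811.

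Kinesin motor genes had the most calls of any role, 7 of 9 (median log2 fold change 0.56). Kif11, the motor that pushes spindle poles apart, stood at 253.3, 205.4 and 151.1 CPM in IRF4-deficient libraries and 141.1, 134.6 and 135.4 CPM in WT. It rose 1.48-fold (edgeR adjusted p = 0.0111). Kif18b, which shortens astral microtubules, stood at 50.2, 45.0 and 41.0 CPM against 25.3, 32.3 and 23.5 CPM, and rose 1.67-fold (log2 fold change 0.74, SE 0.16, edgeR adjusted p = 0.00204). Kif4, a motor on chromosome arms and on the central spindle, stood at 89.8, 64.8 and 59.7 CPM against 44.4, 44.3 and 50.7 CPM. It rose 1.54-fold (edgeR adjusted p = 0.0051). Kif15, which backs up Kif11, rose 1.46-fold. Kif23, part of centralspindlin, rose 1.32-fold, Kif20a, which carries the passenger complex to the midzone, 1.48-fold, and Kif20b 1.28-fold. Kif23 was not called without IRF4-deficient replicate 1, WT replicate 2 or WT replicate 3 (adjusted p 0.0564 to 0.116). Kif20a kept its call in 1 of those 6 fits, that without IRF4-deficient replicate 2, and Kif20b in that without IRF4-deficient replicate 3 (adjusted p in the others 0.0644 to 0.0958 and 0.0709 to 0.205). Kif20a also lost it with a replicate block (0.0504), and Kif20b with the block or with limma-voom (0.0504 to 0.0575). Kif2c, a microtubule depolymerase at kinetochores, was at 18.04, 14.8 and 11.5 CPM against 11.2, 9.64 and 7.10 CPM, not called (edgeR adjusted p = 0.0708) but 0.0298 without IRF4-deficient replicate 3. Kif22, a motor on chromosome arms, was at 21.3 ± 5.02 and 15.9 ± 3.13 CPM and not called.

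Of the spindle microtubule proteins 1 of 3 was called. Nusap1, which bundles microtubules near chromosomes, stood at 114.0, 73.9 and 85.6 CPM in IRF4-deficient and 61.5, 57.3 and 54.8 CPM in WT libraries, a 1.58-fold rise without overlap (edgeR adjusted p = 0.00246). Tpx2, which activates Aurora A and nucleates microtubules, was at 95.2, 58.8 and 67.1 CPM against 70.0, 64.9 and 64.6 CPM. Apart from IRF4-deficient replicate 1 its values lay close together, and it was not called. Stmn1, a microtubule destabiliser, was at 3.77, 3.71 and 2.45 CPM against 2.21, 2.55 and 2.05 CPM. Its groups overlapped, and its 95% interval from -0.40 to 1.47 on the log2 scale spans a fall as well as a rise past 2-fold.

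Cytokinesis genes were called higher in 3 of 4 cases. Racgap1, the partner of Kif23 in centralspindlin, stood at 56.6, 42.9 and 33.2 CPM in IRF4-deficient and 26.0, 28.5 and 28.0 CPM in WT libraries. It rose 1.61-fold (edgeR adjusted p = 0.00852; 0.0741 without IRF4-deficient replicate 1). Anln, the anillin gene of the contractile ring, stood at 99.0, 88.6 and 57.8 CPM against 53.5, 60.0 and 54.8 CPM. It rose 1.46-fold and was the 1 called member whose groups overlapped, since IRF4-deficient replicate 3 was below WT replicate 2. It was no longer called without IRF4-deficient replicate 1 or 2 or WT replicate 1 or 3 (adjusted p 0.077 to 0.117). Prc1, which bundles the microtubules of the spindle midzone, rose 1.35-fold, and lost the call without IRF4-deficient replicate 1 or WT replicate 1 or 3 (0.119 to 0.229), with limma-voom and with a replicate block (0.0615 to 0.0619). Ect2, the exchange factor that activates RhoA at the cleavage site, was at 29.8 ± 10.2 and 24.0 ± 6.29 CPM and not called.

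Of the genes of condensin and chromosome structure 6 of 9 were called higher. Mki67, the Ki-67 antigen that coats mitotic chromosomes and is a common marker of dividing cells (chromosome 7, 135689784 to 135716361, minus strand), stood at 1162, 981.2 and 1001 CPM in IRF4-deficient libraries and at 731.9, 716.7 and 718.3 CPM in WT. The WT values lay close together and below all IRF4-deficient values, and the adjusted p was the smallest of all members (log2 fold change 0.54, SE 0.08, edgeR adjusted p = 5.59e-05). Top2a, which untangles DNA before anaphase (chromosome 11, 98992943 to 99024189, minus strand), stood at 589.0, 423.3 and 397.3 CPM against 322.5, 303.9 and 325.6 CPM and rose 1.48-fold. Ncapd2, a subunit of condensin I, stood at 93.9, 92.2 and 71.6 CPM against 55.5, 53.3 and 58.0 CPM and rose 1.55-fold (edgeR adjusted p = 0.00128). Ncaph, its kleisin subunit, rose 1.53-fold, and Smc2, one of its ATPase arms, 1.32-fold. The other arm, Smc4, did not rise, at 319.6, 289.2 and 342.2 CPM against 359.8, 320.2 and 306.6 CPM. Its log2 fold change was -0.05 and its 95% interval of -0.24 to 0.14 lies below the estimate for Smc2. Ncapg, the remaining condensin I subunit, was at 30.7 ± 6.37 and 27.4 ± 1.64 CPM and not called. Cdca2, a phosphatase anchor on chromosomes, rose 1.37-fold, but kept its call without 1 library only when that was IRF4-deficient replicate 3 (adjusted p 0.0548 to 0.135 in the others, and 0.067 with a replicate block). Hmgb2, an abundant chromatin protein of dividing cells, was at 129.6 ± 22.2 and 111.9 ± 21.6 CPM and not called.

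No sister chromatid cohesion gene was called. Espl1, the protease separase that opens cohesin, stood at 80.8, 58.6 and 56.5 CPM in IRF4-deficient and 51.7, 51.0 and 58.9 CPM in WT libraries. Cdca5, the sororin gene that guards cohesion, was at 27.3, 16.9 and 12.5 CPM against 16.04, 10.3 and 9.56 CPM, where only IRF4-deficient replicates 1 and 2 were above all of WT. It had an edgeR adjusted p of 0.107, and was called without IRF4-deficient replicate 3 or WT replicate 1 (0.0226 to 0.0445). Sgol1, the shugoshin that protects centromeric cohesion, was at 27.6 ± 5.76 and 25.9 ± 3.72 CPM, with a 95% interval of -0.29 to 0.49.

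Foxm1, the transcription factor that drives many G2 and M phase genes, rose 1.67-fold (chromosome 6, 128362967 to 128376146, plus strand). It stood at 75.7, 60.9 and 63.1 CPM in IRF4-deficient and 44.0, 41.5 and 34.1 CPM in WT libraries, without overlap (log2 fold change 0.74, SE 0.14, edgeR adjusted p = 0.000659). Cdca3, which promotes mitotic entry, was at 36.4, 23.6 and 24.5 CPM against 22.8, 21.3 and 12.3 CPM. Its groups did not overlap, with an edgeR adjusted p of 0.0864.

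Calls went with the number of counts and with the size of the change. Of members with at least 1000 counts over the 6 libraries 28 of 46 were called, and of those with fewer 1 of 10. Over all tested genes, at any number of counts, 9.87% were called higher. The median SE of the log2 fold change was 0.14 over called members and 0.21 over the 27 others. Their median fold changes were 1.52 and 1.24, in the same order. Of these 27, 25 had a fold change above 0. Their 95% intervals excluded a 2-fold change either way in 22 cases, but a 1.5-fold rise in 10 cases, so that in the rest a rise of that size was not excluded. Among the called members, 22 intervals excluded a 2-fold rise.

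Per kilobase of annotated exon, the members covered a wide range in both groups. Mki67 was highest at 104.2 ± 9.84 CPM per kb in IRF4-deficient and 71.8 ± 0.829 CPM per kb in WT libraries (SD, n = 3 each). Smc4 followed in level at 60.8 and 63.1 CPM per kb, then Top2a at 52.1 and 35.2 and Hmgb2 at 43.2 and 37.2. On this scale Smc4 was above its partner Smc2 (23.8 and 18.1 CPM per kb) in both groups. The lowest was Stmn1 at 1.722 and 1.18 CPM per kb. Cyclin B2 transcripts (29.6 and 19.5 CPM per kb) were above those of cyclin B1 (3.59 and 2.60). Exon length here is the union over all annotated transcripts, which understates the level of genes with long minor exons.

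**Figure D4:**
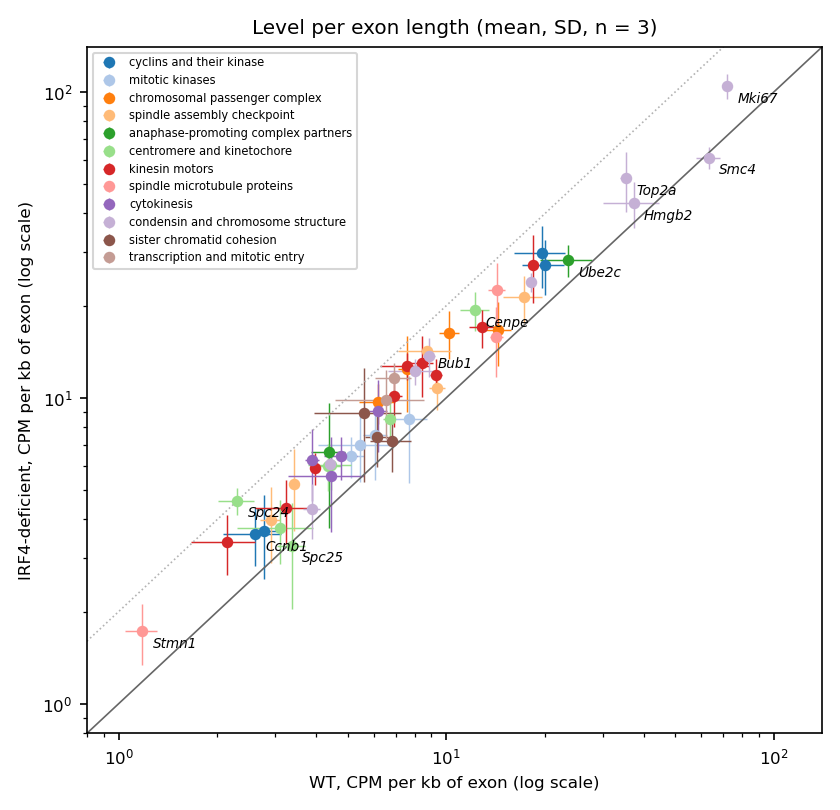
Level per kilobase of exon in WT (x axis) and IRF4-deficient (y axis) libraries, both on log scales, with 1 point per mitosis gene, bars of 1 SD (n = 3) and colours by role. The solid line marks equal levels and the dotted line a 2-fold higher level. Most points lie between the lines, Smc4 lies just below the solid line and Spc24 near the dotted one.

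Exons of 11 members overlap those of a gene on the opposite strand in GENCODE M21 (Ccna2, Cdc20, Cdca8, Kif4, Kif20a, Kif22, Ncapg, Nusap1, Plk1, Prc1 and Ube2c). Since the strand setting of the counting is not given in the sources used here, reads in the shared stretches cannot be assigned to either gene with certainty.

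Among mitosis genes outside the member list, the share called higher was near that of all tested genes. Of 101 such genes 14 were called higher (13.9%, against 9.87% of all tested genes) and 1 lower (0.99%, against 10.5%). Their fold changes were above 0 in 85 cases, with a median of 0.32 on the log2 scale. In 34 of them every IRF4-deficient library was above every WT library, which held for 17.5% of all tested genes. Some cohesin subunits were among the called genes. Smc1a rose 1.39-fold from 302.7 ± 14.8 to 421.4 ± 25.0 CPM (edgeR adjusted p = 0.000301), Rad21 1.41-fold to 289.5 ± 39.1 CPM, and Smc3 1.30-fold to 316.5 ± 16.9 CPM. Ckap2l, a spindle protein gene, rose 1.696-fold and Ncapg2, of condensin II, 1.47-fold. The alternative cohesin subunits Stag1 (223 ± 31.1 against a WT level of 229 ± 4.32 CPM) and Stag2 (302 ± 13.2 and 282 ± 15.1 CPM, in the same order) were not called. Nor were the cohesin regulators Nipbl (647 ± 17.3 and 641 ± 26.7 CPM), Wapal (389 ± 20.2 and 369 ± 28.9 CPM), Pds5a (281 ± 20.3 and 282 ± 20.6 CPM) and Pds5b (151 ± 5.99 and 133 ± 3.25 CPM). Pttg1, the securin that holds separase inactive, was the gene called lower. It stood at 31.7, 22.0 and 35.5 CPM in IRF4-deficient and 51.9, 46.0 and 62.0 CPM in WT libraries, all lower without overlap (log2 fold change -0.84, SE 0.17, edgeR adjusted p = 0.00168). The number of these genes called higher was 8 without IRF4-deficient replicate 1, a fit that called 9.08% of all tested genes higher. It was 8 without WT replicate 3 and 30 without IRF4-deficient replicate 3. Over all tested genes the latter fits called 892 of 12203 and 1157 of 12082 higher.

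S phase genes, which replicate the DNA before mitosis, had 27 of 56 called higher (48.2%, against 9.87% of all tested genes) and 1 lower (1.79%, against 10.5%). Their median log2 fold change was 0.45, beside the 0.46 of the mitosis genes. Mcm5, of the replicative helicase, rose 1.99-fold from 31.0 ± 2.42 to 61.4 ± 10.8 CPM (edgeR adjusted p = 6.75e-05). Pole, the catalytic subunit of a replicative polymerase, rose 1.81-fold, as did 5730590G19Rik, an older symbol of the replication initiation gene Ticrr, and Clspn, which signals stalled forks, rose 1.80-fold. Pola1, of the primase complex, was the gene called lower (log2 fold change -0.45, SE 0.12). IRF4-deficient replicate 1 was the highest library for 32 of the 56 S phase genes. The number called higher was 15 without IRF4-deficient replicate 1 and 16 without WT replicate 2. Over all tested genes these fits called 1100 of 12120 and 868 of 12136 higher.

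Of the genes that set entry into the cycle, 8 of 30 tested were called higher (26.7%, against 9.87% of all tested genes) and 4 lower (13.3%, against 10.5%), with 0.23 as the median log2 fold change. The D cyclins, which bring cells out of G1, differed in direction. Ccnd2 fell from 256.0, 288.0 and 226.9 CPM in WT to 82.4, 110.2 and 88.0 CPM in IRF4-deficient libraries, 2.75-fold lower (edgeR adjusted p = 5.73e-08). Ccnd3 rose 2.10-fold from 42.7 ± 9.91 to 89.3 ± 14.7 CPM (edgeR adjusted p = 0.000112). Ccnd1 stood at 1448 ± 124 and 1534 ± 50.6 CPM and was not called. Cdk6, a partner of the D cyclins, rose 1.73-fold. Cdkn1a, the p21 inhibitor of cyclin-dependent kinases, fell 2.04-fold from 33.2 ± 2.91 to 16.3 ± 3.86 CPM (edgeR adjusted p = 0.000619), and the inhibitor gene Cdkn2b from 8.24 ± 0.428 to 3.22 ± 1.09 CPM. Rbl2, a pocket protein of the DREAM complex, rose 1.38-fold, while Rb1 fell with a log2 fold change of -0.27. The number called higher was 5 without IRF4-deficient replicate 1 or 2 or WT replicate 2. Over all tested genes these fits called 1100 of 12120, 1001 of 12213 and 868 of 12136 higher.

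**Figure D5:**
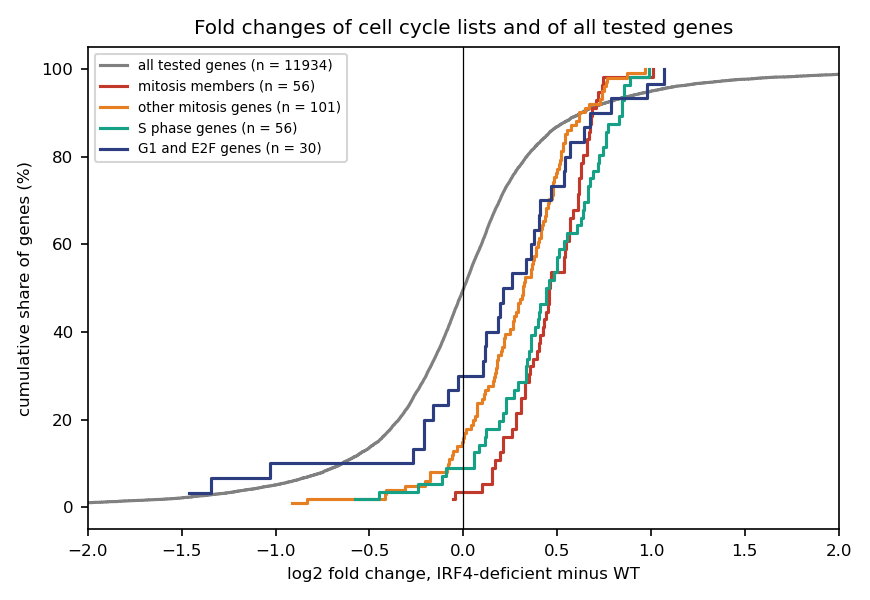
Cumulative share of genes in percent (y axis) by log2 fold change, IRF4-deficient minus WT (x axis, cut at -2 and 2), for the mitosis genes, 3 other cell cycle lists and all 11934 tested genes. The curves of the mitosis and S phase genes lie to the right of all tested genes over most of the range, with medians of 0.46 and 0.45 against 0.003.

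The cDC2 markers Itgax, Itgam, Sirpa, Flt3 and H2-Ab1 were present in all libraries, at 235.3 CPM (Flt3) or more. Their levels were not all kept, since of the 11 in that list 2 were called higher (18.2%) and 6 lower (54.5%). Over all tested genes 9.87% were called higher and 10.5% lower, the shares to set beside each marker list below. Itgax and Itgam were called higher, and Itgam rose 3.03-fold. Irf4, Cd4, Cd209a, Zbtb46, Flt3 and H2-Ab1 were called lower. Cd4 fell 4.23-fold, Irf4 3.88-fold, Cd209a 2.48-fold and Zbtb46 1.92-fold. Counts are per gene and Cre removes a part of Irf4, so its fall does not measure how much IRF4 was lost. Sirpa, Clec4a4 and Esam were not called. Other spleen cells that divide, or that could carry these transcripts, were looked for by their markers. Of 5 tested erythroid genes 0 were called, and the 8 in the table summed to 21.4 to 54.1 CPM in IRF4-deficient and 34.6 to 71.2 CPM in WT libraries. Rhag had 0 counts in all IRF4-deficient libraries and Klf1 in IRF4-deficient replicate 2. The WT libraries likewise each had 1 or 2 of the 8 erythroid genes at 0 counts. The 5 neutrophil genes in the table were below the filter and summed to 1.11 to 3.45 and 2.73 to 12.2 CPM. Camp was at 0 counts in all IRF4-deficient libraries, and WT replicate 1 had 2 of the 5 at 0 counts. Of 7 tested B cell genes 1 was called higher and 2 lower, and the 8 in the table summed to 109.0 to 146.1 and 100.6 to 170.8 CPM. Of 2 tested plasma cell genes 1 was called lower, and the 4 in the table summed to 31.6 to 46.1 and 35.5 to 59.5 CPM. Of 5 tested T and NK cell genes 1 (Il7r) was called higher, and the 9 in the table summed to 54.3 to 102.7 and 40.9 to 42.9 CPM. Markers of cDC1s, a sister subset, were called higher in 5 of 8 cases (62.5%) and lower in 1 (12.5%). They summed to 307.3, 416.6 and 409.97 CPM in the IRF4-deficient libraries, with WT between 240.7 and 250.8 CPM. IRF4-deficient replicate 1 was thus the lowest of its group here. Of 6 tested plasmacytoid dendritic cell genes 1 was called higher and 1 lower, with sums of 203.5 to 229.7 and 213.7 to 250.9 CPM. The part of such cells in the mitosis result was not tested.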

How the data were processed

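Illumina libraries were made from total RNA of the cells, per the labels' protocols. Values are raw counts, deposited by the authors for 6 libraries in 1 table by gene symbol, as whole numbers without normalization. STAR, HTSeq and DESeq2 and the build mm10 are named in the submitters' processing notes, with versions, annotation and strand setting not given in the sources used here. The WT columns are numbered otherwise than the sample titles and were tied to them through the source names in the labels. Replicate numbers, also those of the replicate block, are those of the titles. No label says that equal replicate numbers share a mouse or day.

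Genes were kept by filterByExpr (11934), scaled by TMM and tested with edgeR 4.0.16 (R 4.3.3, glmQLFit and glmQLFTest with robust shrinkage), with Benjamini-Hochberg adjustment over all tested genes and a threshold of 0.05. This model was tested on simulated data. SE and 95% intervals come from the quasi-likelihood F statistic. DESeq2 1.42.0, limma-voom (limma 3.58.1), other factors, other filters, a replicate block and the removal of each library were alternatives. Within groups, libraries differed by more than counting error (chi-square per degree of freedom 7.66 to 15.9). Members, roles and lists were chosen with earlier results of these data known. All members may be named. Per-library values are given for the most abundant and the 2 most significant members of each role, and for a few others chosen after their values were seen. From the other cell cycle lists, genes with the smallest p, those called against the majority and abundant ones were named. Coordinates and exon lengths are from GENCODE M21 (GRCm38, as mm10), in which Sgol1 is Sgo1, and 6 cell cycle genes and a globin gene of the lists were matched through another symbol. The last 30 bases of 41 of the 49 promoter windows lie in a GENCODE transcript of the gene. A planned count of a degron motif in member proteins was not run here.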

Additional observations from a re-analysis of the deposited data

How the results depend on the processing

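The members' median log2 fold change was above 0 under all 15 alternatives, while fewer single members were above 0 without IRF4-deficient replicate 1 (51, against 54 with all libraries). Outside the fits that left out a library, the number called higher was 23 with the replicate block, 25 with limma-voom and 28 or 29 in the other 7, none was called lower, and the median log2 fold change was 0.45 to 0.47. Rn45s and Malat1 were left out after seeing the data, and 29 members were then called. Over the 6 fits that left out a library, members called higher ran from 16 to 32, the members' median from 0.31 to 0.55, other mitosis genes called higher from 8 to 30 and lower from 1 to 2, S phase genes higher from 15 to 31 and lower from 0 to 2, G1 genes higher from 5 to 9 and lower from 3 to 4, and all genes called from 1779 to 2431 (2429 with all libraries). Of the 29 called members 13 were called under every alternative run. Libraries of equal replicate number, as numbered in the sample titles, had correlations of deviations of -0.005, 0.05 and -0.01. With 3 libraries a group these values cannot decide whether any libraries were paired. The replicate block cut all calls to 2267. With 3 libraries a group and a rise near 1.5-fold, calls near the threshold were lost mostly without IRF4-deficient replicate 1 or a WT replicate. Without WT replicates 1, 2 and 3 all genes called also fell, to 2130, 1779 and 1842. The members' median log2 fold change in those fits was 0.52, 0.51 and 0.44, while without IRF4-deficient replicate 1 it was 0.31.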
